A study of Mus musculus with 6 samples.

Results

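The AP-1 family of transcription factors was followed in the total mRNA of mouse lymphoid Ba/F3 cells, which grow on interleukin-3, engineered to carry RPL10 in its WT or R98S form. All 10 genes encoding the Fos subfamily (Fos, Fosb, Fosl1, Fosl2), the Jun subfamily (Jun, Junb, Jund) and the Batf subfamily (Batf, Batf2, Batf3) were taken by symbol from the 41255 genes listed, whatever their values. RPL10 is a protein of the large ribosomal subunit, and R98S, found in T-cell acute lymphoblastic leukemia, places a serine at residue 98. Cells of both groups received a retroviral human RPL10 cDNA, WT or R98S, together with a short hairpin RNA against endogenous mouse Rpl10, and both were held in cycloheximide, an inhibitor of translation, at 100 µg/ml for 5 min before RNA isolation. The groups were 3 WT clones (28, 29 and 36) and 3 R98S clones (11, 13 and 35), with 1 library each. Each clone was a culture grown from a single cell and retained for strong knock-down, so that the spread within a group is a spread between clones. Whether the RPL10 form goes with a different level of each AP-1 mRNA was the question of the comparison.

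AP-1 is a dimer of basic leucine zipper (bZIP) proteins. Jun proteins pair with one another or with Fos proteins, whereas Fos proteins need a Jun partner, and the dimers bind short DNA elements related to TGACTCA. Batf proteins lack a separate activation domain, pair with Jun proteins and, in lymphocytes, bind together with IRF factors. Fos, Fosb, Jun and Junb are classical immediate-early genes, switched on within minutes by MAP kinase signaling, and their mRNAs are short-lived. For Fos, serum response factor takes part in this. Jund is known to answer less to such stimuli. In blood cells, AP-1 takes part in proliferation, differentiation and the response to cytokines, and Junb is known for restraining myeloid growth.

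The libraries held between 21786776 and 24204991 reads, and a floor of 3 reads corresponded to a normalized count (reads divided by the size factor of the library) between 2.775 and 3.224, a limit that covers counting error only. Clones 36 (WT) and 13 (R98S) stood furthest from their group mates, with 5.08% and 5.73% of the 11550 tested genes more than 2-fold away from the mean of their group mates, against 2.57% to 4.07% for the other libraries. Rpl10 itself was listed at 1883 to 3156 normalized counts over both groups, a row that may also hold reads of the human cDNA. The B-lymphoid marker genes Vpreb1, Vpreb2, Igll1, Rag1, Pax5 and Dntt were at or under the floor in every library, while Cd79a was present at 996.4 to 1507 normalized counts and Cd79b was called higher in R98S cells, with overlapping groups (log2 fold change 1.22, limma adjusted p = 0.0617). The beta chain genes of the interleukin-3 receptor, Csf2rb and Csf2rb2, were abundant in every library and rose by 0.53 and 0.62 on the log2 scale in R98S cells (limma adjusted p = 0.0509 and 0.0178), while Ptprc, the leukocyte gene of the same marker list, fell by 1.33 (limma adjusted p = 0.00894). The part of these shifts in the AP-1 values was not tested. In a bulk sample, fewer cells expressing an mRNA and less mRNA per cell cannot be told apart.

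The elements through which AP-1 and the related ATF/CREB factors act were searched on both strands of the RefSeq promoter windows (GRCm38.p6, from 250 bases before to 50 after the transcription start), since several AP-1 genes are themselves regulated through such elements. Windows were present for 8 members, and not for Fosl1 and Batf2. None of the 8 held TGACTCA, which occurred in 5.2% of 32851 windows, or TGACGTCA, which occurred in 1.79%. The variant TGACATCA, found in 3.62% of windows, was present once, in Jun, and the ATF/CREB core TGACG, found in 20.8% of windows and contained in TGACGTCA, was present in Fos, Fosb, Junb and Batf. The matches are written in the direction of transcription, with the motif in capitals, to show which letters stand upstream of each member. The TGACG core stood in Batf and Junb, which differed in opposite directions between genotypes, as well as in Fos and Fosb, which were not called. A link between these letters and the mRNA levels was not tested.
Jun, minus strand, chr4:95052250-95052277: agcctcggggTGACATCAtgggctattt
Junb, minus strand, chr8:84978840-84978864: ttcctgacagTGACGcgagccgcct
Fos, plus strand, chr12:85473814-85473838: ttccgcccagTGACGtaggaagtcc
Fos, plus strand, chr12:85473751-85473775: ggcgtagagtTGACGacagagcgcc
Fosb, minus strand, chr7:19310091-19310115: gagttgcgggTGACGcaagcgcggg
Batf, plus strand, chr12:85686612-85686636: tctaacttgtTGACGtttccgccca
The Jun match began 45 bases before the start site, the Junb match 106 bases before it, the Fos matches 66 and 129, the Fosb match 60 and the Batf match 98. Fosl2, Jund and Batf3 held none of the 4 letter strings in these windows. A match describes the letters only, and binding was not measured.

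Of the 10 members, 9 averaged 10 or more normalized counts across the 6 libraries and were tested with limma on log2(normalized count + 1), with Benjamini-Hochberg adjustment over all tested genes and a threshold of 0.1. In RPL10 R98S cells, 3 members were higher (Jun, Batf and Batf2) and 1 was lower (Junb), or 44.4% of those tested. Over all tested genes the share called was 23.9%, with 10.7% higher and 13.1% lower. Groups did not overlap for 4 of the 9 members and for 37.3% of all tested genes. The median log2 fold change was 0.22 for the members and -0.01 for all tested genes. The member median is the value of Fosb (SE 0.46), which was not called. Fos, Fosb, Fosl1, Fosl2 and Jund did not pass the threshold. With a clone left out, the number of members called was 2 without WT clone 29 or R98S clone 35 and 6 without R98S clone 13. Of all tested genes, 11.4%, 12.6% and 21.7% were called without WT clone 28, 29 or 36, and 13.5%, 27.8% and 17.4% without R98S clone 11, 13 or 35. The count tests of edgeR and DESeq2 on recovered reads, which called 23.8% and 26.9% of genes, called the same 4 members. Batf3, known for its part in classical dendritic cells, had 1 read in WT clone 28 and none in the other 5 libraries and was not tested.

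**Figure D1:**
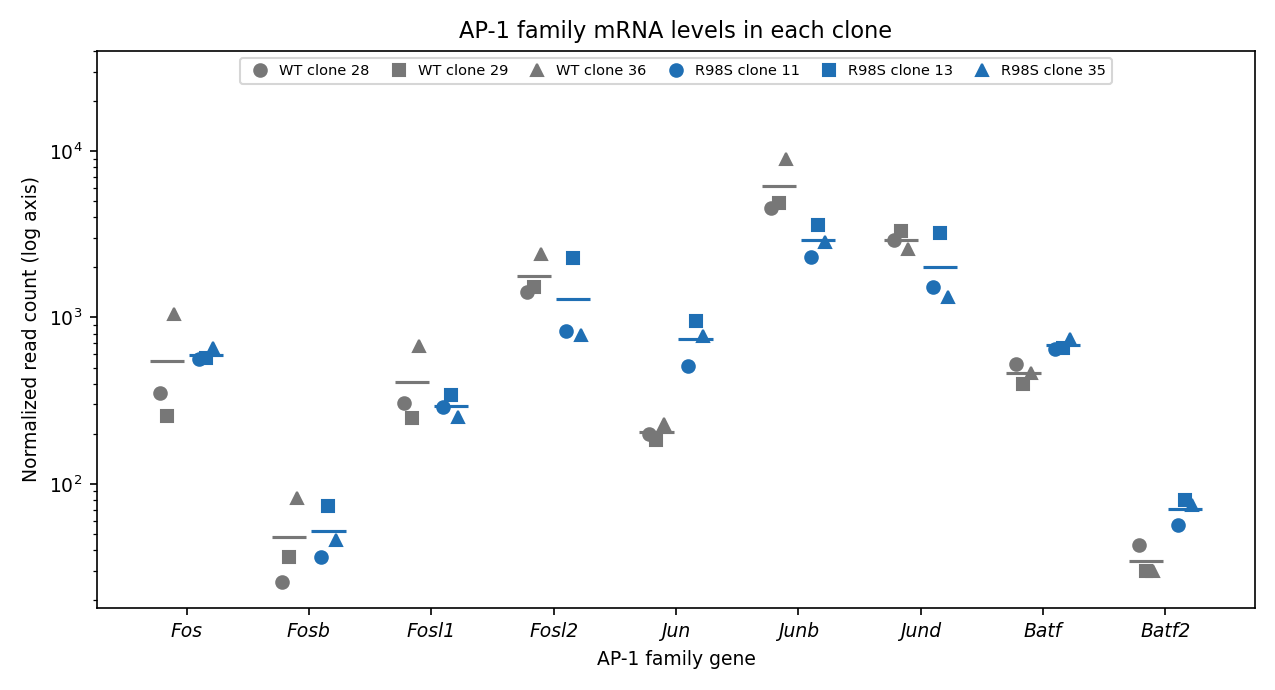
Normalized read count (y, log axis) of the 9 tested AP-1 genes (x) in the 3 WT clones (grey) and the 3 R98S clones (blue), 1 point per library, with the group mean as a bar. Jun, Batf and Batf2 lie higher in all R98S clones than in any WT clone, Junb lies lower, and WT clone 36 is the highest WT clone for all 4 Fos genes, Jun and Junb.

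Jun encodes c-Jun, the founding member and a strong activator (single-exon gene on chromosome 4, 95049034 to 95052222, minus strand, GRCm38). Its normalized count was 199.7, 183.8 and 228.2 in WT clones 28, 29 and 36, against 513.2, 946.1 and 775.3 in R98S clones 11, 13 and 35. All R98S clones lay far above all WT clones, with a wider spread among the R98S clones. The group means were 203.9 ± 22.5 and 744.9 ± 218 (SD, n = 3 clones each), a ratio of 3.65. The log2 fold change was 1.83 (SE 0.23, limma adjusted p = 0.00324). With each clone left out in turn it stayed between 1.63 and 2.07, and Jun passed the threshold each time. The exon of Jun shares 232 bases with Junos on the opposite strand, which was listed at no more than 1.001 normalized counts.

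Junb encodes a Jun protein that activates less strongly than c-Jun and can restrain it (chromosome 8, 84974484 to 84978718, minus strand). It was listed at 4563, 4895 and 8931 normalized counts for WT clones 28, 29 and 36, and at 2310, 3605 and 2853 in R98S clones 11, 13 and 35. The groups did not overlap, but WT clone 36 stood well above its mates. The WT mean of 6130 ± 2432 compared with 2923 ± 650 for R98S (SD, n = 3), a ratio of 0.477, and the log2 fold change was -1.02 (SE 0.27, limma adjusted p = 0.0382). Without WT clone 36 the log2 fold change was -0.72 and still called (limma adjusted p = 0.0483). Without R98S clone 11, the lowest clone, it was -0.87 and no longer called (limma adjusted p = 0.13). The exons of Junb share 173 bases with Prdx2 on the opposite strand, which was also lower in R98S cells (log2 fold change -0.67, limma adjusted p = 0.0156). The libraries were stranded, and whether the counting used the strand is not given in the sources used here.

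Jund, which encodes a Jun protein known to slow growth in several cell types, is a single-exon gene on the same chromosome (70698949 to 70700616, plus strand). Its normalized count was 2926, 3323 and 2559 in WT clones 28, 29 and 36, against 1518, 3198 and 1318 in R98S clones 11, 13 and 35. R98S clone 13 lay within the WT range, whereas the other R98S clones lay below it. The log2 fold change was -0.65 (SE 0.30, limma adjusted p = 0.179). Without R98S clone 13 it was -1.04 (limma adjusted p = 0.00758), so that Jund was called without this library and not with it. Of its 1668 exonic bases, Jund shares 877 with Gm11175 on the opposite strand, which was listed at 0.0 in every library.

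Because Jun was higher and Junb lower, the ratio between them differed more than either gene. Per kb of exon, there were 31.7, 36.9 and 54.2 Junb for each Jun in WT clones 28, 29 and 36, against 6.24, 5.28 and 5.1 in R98S clones 11, 13 and 35. The ranges were far apart, with means of 40.9 ± 11.8 and 5.54 ± 0.611 (SD, n = 3). No test was run on this ratio, which combines 2 of the called genes.

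**Figure D2:**
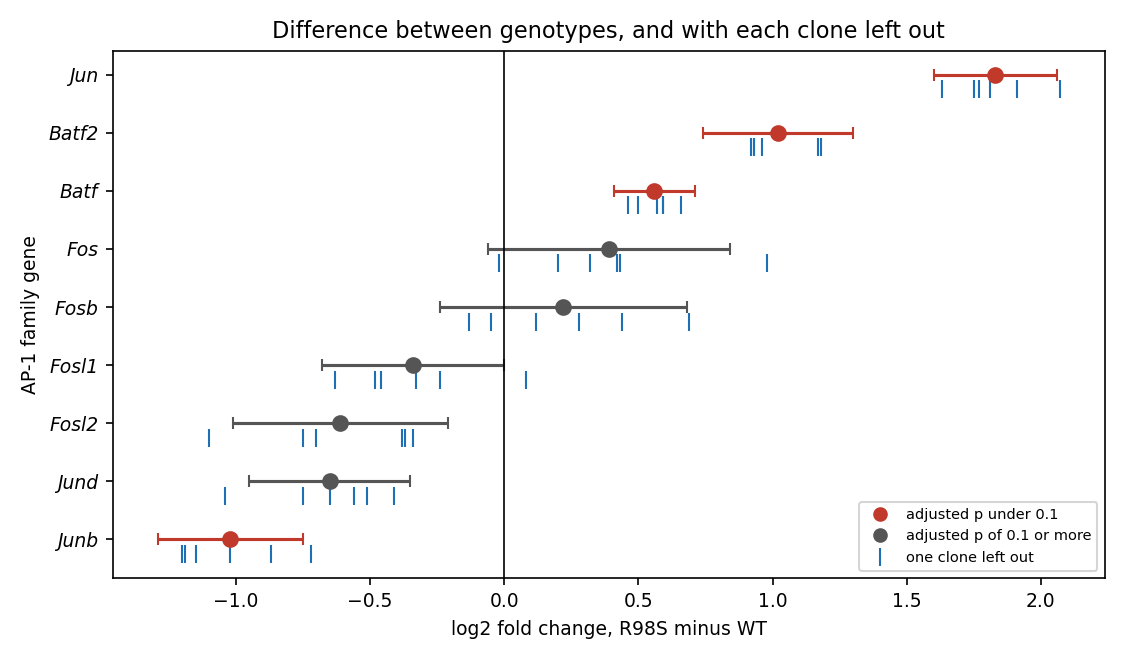
log2 fold change, R98S minus WT, on the log2(normalized count + 1) scale (x) for the 9 tested AP-1 genes (y), with SE bars; red marks a limma adjusted p under 0.1, and short blue lines give the value with 1 clone left out. Jun stays between 1.63 and 2.07, whereas the blue lines of Fos, Fosb and Fosl1 fall on both sides of 0.

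Fos, the c-Fos gene and the classical immediate-early partner of Jun (chromosome 12, 85473890 to 85477273, plus strand), was listed at 350.2, 256.8 and 1042 normalized counts for WT clones 28, 29 and 36. In R98S clones 11, 13 and 35 it was 561.1, 570.5 and 655.0. The R98S clones lay close together, between WT clones 28 and 29 below and WT clone 36 above. Means were 549.6 ± 429 and 595.5 ± 51.7 (SD, n = 3), and the log2 fold change was 0.39 (SE 0.45, limma adjusted p = 0.589). Without WT clone 36 the value was 0.98 (limma adjusted p = 0.0206), and without WT clone 29 it was -0.02.

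Fosb, a second immediate-early Fos gene (chromosome 7, 19302696 to 19310051, minus strand), was low. Its normalized count reached 25.6, 36.54 and 82.06 for WT clones 28, 29 and 36, against 36.59, 73.48 and 46.26 in R98S clones 11, 13 and 35. The groups overlapped almost wholly, and the log2 fold change was 0.22 (SE 0.46, limma adjusted p = 0.77). Its sign turned without WT clone 28 (-0.13) or without R98S clone 13 (-0.05).

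Fosl1 encodes Fra-1, a Fos protein without a strong activation domain that typically appears later than c-Fos (chromosome 19, 5447547 to 5455946, plus strand). The values were 306.2, 249.3 and 674.5 in WT clones 28, 29 and 36, against 288.0, 343.9 and 253.5 in R98S clones 11, 13 and 35. Apart from WT clone 36, all libraries lay in one narrow range. The log2 fold change was -0.34 (SE 0.34, limma adjusted p = 0.526), and 0.08 without WT clone 36. Fosl1 shares 1163 exonic bases with Ccdc85b on the opposite strand, whose log2 fold change was 0.00 (limma adjusted p = 0.997).

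Fosl2 encodes Fra-2, the relative of Fra-1 (chromosome 5, 32135801 to 32157842, plus strand). Its normalized count was 1419, 1524 and 2402 in WT clones 28, 29 and 36, against 829.4, 2262 and 784.5 in R98S clones 11, 13 and 35. As for Jund, R98S clone 13 was high and the other R98S clones lay below every WT clone. The log2 fold change was -0.61 (SE 0.40, limma adjusted p = 0.331), and -1.10 without R98S clone 13 (limma adjusted p = 0.0251).

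Batf, which drives effector programs of T and B cells together with Jun and IRF proteins (chromosome 12, 85686669 to 85709087, plus strand), differed by a smaller fold but with little spread. It stood at 527.4, 398.7 and 464.4 normalized counts for WT clones 28, 29 and 36 and at 648.3, 653.2 and 739.2 in R98S clones 11, 13 and 35. All R98S clones were above all WT clones. Means were 463.5 ± 64.3 and 680.2 ± 51.1 (SD, n = 3), a ratio of 1.47, and the log2 fold change was 0.56 (SE 0.15, limma adjusted p = 0.0404). Without WT clone 29 or R98S clone 35 it was 0.46 and 0.50 and no longer called (limma adjusted p = 0.138 and 0.109).

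Batf2, an interferon-inducible relative (chromosome 19, 6140983 to 6172476, plus strand), was weakly expressed, with 43.01, 30.09 and 30.02 normalized counts for WT clones 28, 29 and 36, against 56.29, 79.61 and 74.94 in R98S clones 11, 13 and 35. The groups did not overlap, although these values rest on at most 81 reads in a library. Means were 34.37 ± 7.48 and 70.28 ± 12.3 (SD, n = 3), a ratio of 2.04, and the log2 fold change was 1.02 (SE 0.28, limma adjusted p = 0.0447). As for Batf, the call was lost without WT clone 29 (0.93, limma adjusted p = 0.137) or R98S clone 35 (0.96, limma adjusted p = 0.114). The exons of Batf2 share 51 bases with Arl2 on the opposite strand, which was lower in R98S cells (log2 fold change -0.63, limma adjusted p = 0.0177).

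Fos and Batf lie 209.4 kb apart on chromosome 12, with Jdp2, a bZIP repressor that pairs with Jun proteins, between them, 46.8 kb from Batf. Jdp2 was listed at 900.1, 699.6 and 503.4 normalized counts for WT clones 28, 29 and 36, and at 650.2, 715.5 and 854.8 in R98S clones 11, 13 and 35. Its groups overlapped (log2 fold change 0.11, limma adjusted p = 0.765), so of these 3 neighbours only Batf passed the threshold with all libraries in the fit.

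To compare levels between genes, normalized counts were divided by the exon length of each gene in kb. In WT cells the order by mean per-kb level was Junb, Jund, Batf, Fos, Fosl1, Fosl2, Jun, Batf2 and Fosb, from 2664 ± 1057 for Junb and 1760 ± 229 for Jund down to 13.6 ± 2.97 for Batf2 and 7.7 ± 4.8 for Fosb (SD, n = 3). The ranges of Junb and Jund overlapped, those of Batf, Fos, Fosl1 and Fosl2 overlapped from each to the next, and Jun, at 63.9 ± 7.06, was below all clones of Fosl2. The order among the Fos genes rested on WT clone 36, without which the WT means were 152 for Fosl2, 137 for Fosl1, 129 for Fos and 4.98 for Fosb. It also rested on the gene length used. With the longest transcript as length, the mean share of the summed AP-1 level in WT clones was 4.16% for Fosl2. Fos held 3.71% and Fosl1 3.24%, whereas by exon length Fos held 3.97%, Fosl1 3.53% and Fosl2 3.34%. The order in R98S cells was Junb, Jund, Batf, Fos, Jun, Fosl1, Fosl2, Batf2 and Fosb. Junb (1270 ± 283) and Jund (1206 ± 619) again overlapped, and Batf, at 484 ± 36.4, was apart from its neighbours. Jun was at 234 ± 68.4 per kb, overlapping the ranges of Fos (253 ± 22), Fosl1 (145 ± 22.5) and Fosl2 (133 ± 86.8). Batf2 and Fosb were lowest and apart from each other. With the longest transcript as length, the mean share in R98S clones was 4.17% for Fosl2 and 3.62% for Fosl1. By exon length these shares were 3.33% and 3.95%. Without R98S clone 11, Jun (270) stood above Fos (261) and Fosl2 (157) above Fosl1 (147), without R98S clone 35 Jund (1414) stood above Junb (1285) and Fosl2 (160) above Fosl1 (155), and without R98S clone 13 the mean of Fosl2 was 83.4.

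Summed per kb, the Jun subfamily made up 81.8%, 85.8% and 79.9% of the AP-1 mRNA in WT clones 28, 29 and 36, against 68.5%, 76.6% and 68.5% in R98S clones 11, 13 and 35. The R98S shares lay below all WT shares. The Batf subfamily held 8.46%, 6.07% and 4.98% in the WT clones and 16.0%, 10.1% and 16.7% in the R98S clones, again without overlap. The Fos subfamily held 9.7%, 8.12% and 15.1%, against 15.6%, 13.3% and 14.8%, with WT clone 36 inside the R98S range. Within the Jun subfamily, Jun itself accounted for 1.65%, 1.38% and 1.3% in WT, and for 7.76%, 7.85% and 10.7% in R98S clones. The summed AP-1 level was 4643, 4868 and 6865 per kb in WT clones, against 3030, 4934 and 3321 in R98S clones, so that the totals overlapped through R98S clone 13. These shares follow from the gene values above, without a test of their own, and shares of one total are bound to move against each other.

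**Figure D3:**
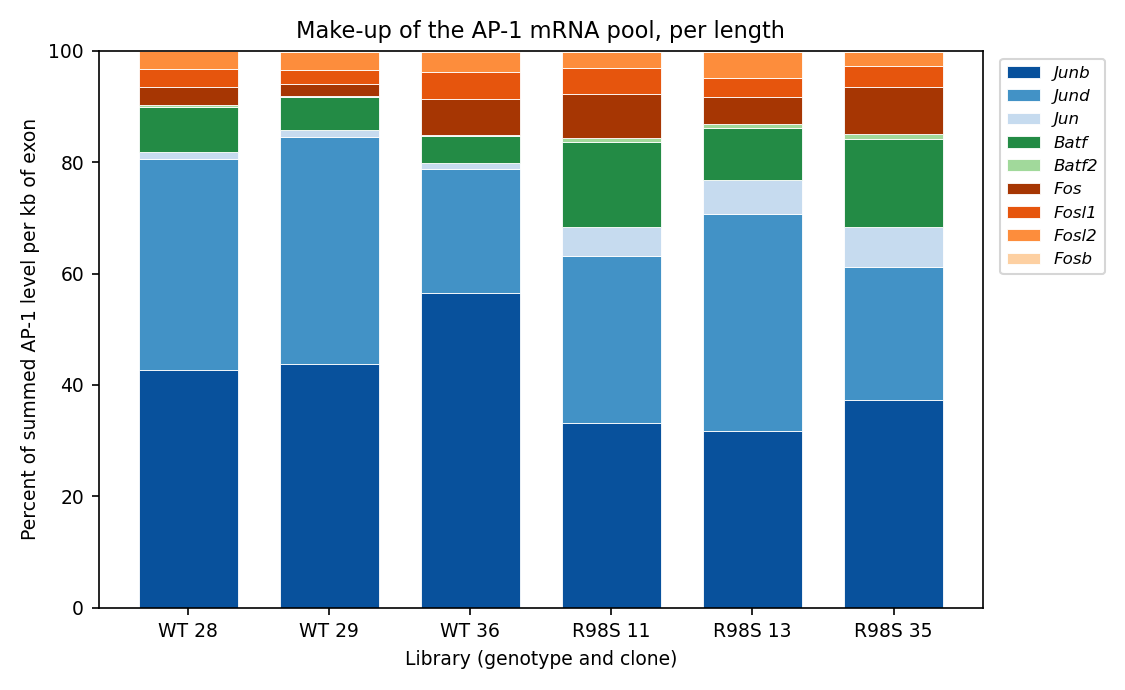
Percent of the summed AP-1 level per kb of exon (y) held by each gene in each of the 6 libraries (x), with Jun genes in blue, Batf genes in green and Fos genes in orange. The Jun genes fill 79.9% to 85.8% of each WT bar and 68.5% to 76.6% of each R98S bar, and Jun, the palest blue, is a thin band in WT and a wider one in R98S clones.

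The WT clones differed among themselves. From a different mRNA dataset, matched to polysome profiling and not used here, the study excluded a sample of WT clone 36. The reason given was that the sample grouped with R98S samples in a principal component analysis. Relative to the mean of clones 28 and 29 on the log2(normalized count + 1) scale, WT clone 36 was higher by 1.79 for Fos, 1.39 for Fosb, 1.28 for Fosl1, 0.92 for Junb and 0.71 for Fosl2. The other members differed less, with 0.25 for Jun, 0.02 for Batf, -0.25 for Batf2 and -0.28 for Jund. Thus 3 of 9 members were more than 2-fold above the group mates, against 3.52% of all tested genes. Among 17 tested immediate-early genes outside the family, 16 were above the mates in this clone, with a median of 0.81. Over all tested genes, 46.5% were above the mates, with a median of -0.02.

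R98S clone 13 showed a similar deviation with other members in front. Against the mean of R98S clones 11 and 35, it was higher by 1.49 for Fosl2, 1.18 for Jund, 0.82 for Fosb, 0.58 for Jun and 0.49 for Junb on the same scale. Fos (-0.09) and Batf (-0.08) did not stand out, whereas Fosl1 was at 0.35 and Batf2 at 0.29. Of the 9 members, 2 were more than 2-fold above the mates, against 3.99% of all tested genes. The immediate-early list was above the mates for 16 of 17 genes (median 0.76) in this clone, against 50.4% of all tested genes (median 0.0). Clone 36 and clone 13 are in different groups and both lay high, and no label gives a batch, harvest day or culture density by which to split the libraries.

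**Figure D4:**
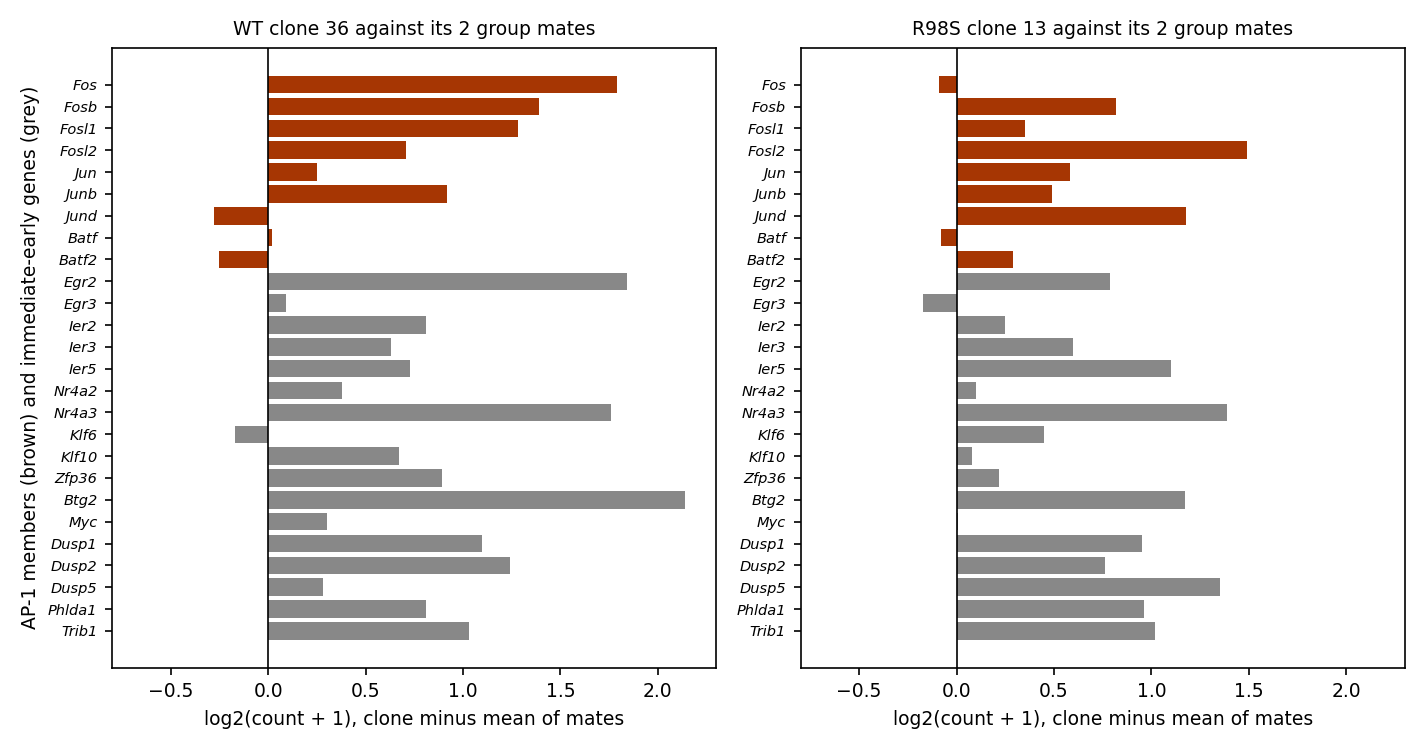
Difference in log2(normalized count + 1) between a clone and the mean of its 2 group mates (x) for the tested AP-1 genes (brown) and immediate-early genes (grey), in WT clone 36 (left) and R98S clone 13 (right). In both panels 16 of 17 immediate-early genes and 7 of 9 AP-1 genes lie above 0, but Fos leads among the AP-1 genes in clone 36 and Fosl2 in clone 13. Over all tested genes, 46.5% lie above 0 in clone 36 and 50.4% in clone 13.

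Over the 6 libraries, some members had patterns closer to each other than to the rest. The distance used was the root-mean-square difference of mean-centred log2(normalized count + 1) values, in which the genotype difference and the clone differences both count. The closest members were Batf and Batf2 (0.28), followed by Fosl2 and Jund (0.35), and the farthest were Jun and Junb (1.45). Among 10041 other tested genes averaging 50 or more normalized counts, those nearest to Jun were Grb7 (0.196), Slc38a6 and Ccrn4l. Nearest to Junb were Neil3 (0.106), Ubash3b and Mxd3. The nearest to Jund were Map1a (0.071), Anxa5 and Arhgap23, and to Batf Mir6236 (0.055), Mtg2 and Prpsap2. For Batf2 they were Lyplal1 (0.118), 9130023H24Rik and Otx1. In the Fos subfamily they were Jag2 (0.131), Tmc4 and Cxcr2 for Fos, Nol4l (0.084), Cd84 and L1cam for Fosl1, and B3gnt3 (0.123), Dlg4 and Sept3 for Fosl2. For Fosb, the nearest were Oas1c (0.181) and a pair of immediate-early genes, Egr2 and Dusp1, which also peaked in WT clone 36 and R98S clone 13. With 6 libraries such a likeness is a description only.

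Partners and regulators of AP-1 were described by counts from fixed lists, beside the 23.9% of all tested genes called. Of 15 tested bZIP and IRF partners, 1 was higher and 4 were lower in R98S cells (33.3%, median log2 fold change -0.16). The count of 5 called was 2 without WT clone 28 or 29 and 3 without R98S clone 11 or 35. Atf5, a stress-responsive ATF factor, fell by 1.86 on the log2 scale (limma adjusted p = 0.0126) and Nfe2, the hematopoietic NF-E2 subunit, fell by 0.83 (limma adjusted p = 0.0164). Mafg, a small Maf partner, and Atf7, an ATF2 relative, fell by 0.47 and 0.43, and Creb1 rose by 0.46. Irf4, which joins Batf-Jun dimers in lymphocytes, had at most 5 reads in any library, and Irf8 at most 15, so neither was tested. Irf8 was at or under the floor in WT clones 28, 29 and 36 (2.048, 2.149 and 3.002 normalized counts). In R98S clones 11, 13 and 35 it was at 12.2, 15.31 and 9.252.

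Of the 17 tested immediate-early genes, 6 were lower and none higher in R98S cells by limma (35.3%, median log2 fold change -0.29). With all libraries in the fit, none was higher at an unadjusted p under 0.05 or by edgeR and DESeq2 on recovered reads. The count of 6 called was 9 without WT clone 36, and 5 without WT clone 29, R98S clone 11 or R98S clone 35. Btg2, Dusp2, Egr2 and Nr4a3 lay higher in every R98S clone than in WT clones 28 and 29. In WT clone 36 these genes lay within or above the R98S range. The 6 called genes named in part below were lower. The called genes included Egr3 (-2.28), Trib1 (-1.76), Dusp5, a phosphatase of ERK (-1.72), Klf10 (-1.55) and Klf6 (-1.01). In the fit of all 6 libraries, Jun therefore differed in the opposite direction to every called gene of this list, and Junb in the same. Ier2 (log2 fold change -0.62, limma adjusted p = 0.111), Zfp36 (-0.29, 0.491), Myc (-0.18, 0.405) and Dusp1 (-0.08, 0.907) did not pass. Egr1 and Nr4a1 had at most 12 reads in any library and were not tested.

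The list of MAP kinases and of serum response factor with its partners (SRF/TCF factors) gave 7 lower and no higher genes of 23 tested by limma (30.4%, median log2 fold change -0.11). None was higher at an unadjusted p under 0.05 or by edgeR and DESeq2. The count of 7 was 2 without WT clone 28, WT clone 29 or R98S clone 11, and 4 without R98S clone 35. The largest difference was that of Elk3, a ternary complex factor at serum response elements, which was listed at 2965, 3834 and 2622 normalized counts for WT clones 28, 29 and 36 and at 942.9, 1148 and 885.4 in R98S clones 11, 13 and 35 (log2 fold change -1.65, limma adjusted p = 0.00109). Map3k5 (-0.82), Mkl2 (-0.60), Map2k1 (-0.55) and Mapk9, the JNK2 kinase of c-Jun (-0.42), were lower as well. Mapk8, which encodes JNK1, (log2 fold change -0.11, limma adjusted p = 0.721) and Srf (0.01, limma adjusted p = 0.949) did not pass, both being named after their values were seen. Of 8 genes for the turnover of Jun and Fos proteins or mRNAs, 1 was called (12.5%), namely Zfp36l2, an RNA-binding protein of AU-rich elements, which fell by 1.22 (limma adjusted p = 0.00567). That count was 3 without WT clone 36 or R98S clone 13.

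Of 16 tested genes that textbooks name as AP-1 targets, 10 fell and 2 rose in R98S cells (75.0%, median log2 fold change -0.87). On recovered reads, edgeR gave 10 lower and 2 higher, and DESeq2 gave 11 lower and 1 higher. Ccnd1, with at most 39 reads in a library, was called higher by limma and edgeR but not by DESeq2. Spp1, which encodes osteopontin, was listed at 46218, 43334 and 26238 normalized counts for WT clones 28, 29 and 36 and at 74.12, 107.2 and 544.9 in R98S clones 11, 13 and 35 (log2 fold change -7.83, limma adjusted p = 0.000372). The galectin gene Lgals3 differed in the opposite direction, with 35.84, 33.31 and 49.04 against 575.1, 755.3 and 361.7 (log2 fold change 3.76, limma adjusted p = 0.000318). The metallothionein gene Mt2 (-2.12), Vim (-1.96) and Lmna (-1.83) were lower, with Vim and Lmna encoding intermediate filament proteins. These genes also answer to many other factors, and the list was drawn up with earlier results of these data known.

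Beside this list, the summed marker levels differed between genotypes in part. The summed level of 6 macrophage markers was 9222 to 12596 normalized counts in WT and 778 to 3139 in R98S libraries, mostly from Emr1, with Mrc1 and Marco at or under the floor and Csf1r at no more than 7 reads in a library. The sum of 8 T-cell markers was 52.2 to 107 in WT and 154 to 181 in R98S libraries, with Cd3e, Cd4, Cd8b1 and Zap70 at or under the floor. It came mostly from Lck and Cd3d, which were higher in R98S cells but had at most 110 and 93 reads in a library. Cd3g went the other way, with 43.03 normalized counts in WT clone 36 and at most 1.85 in R98S clones. The sum of 6 fibroblast markers was at most 25.8. For the 5 genes of the interleukin-3 marker list, the sum was 98119 to 118045 in WT and 134078 to 158695 in R98S libraries. It came mostly from Csf2rb and Csf2rb2, with Kit at or under the floor. Ptprc of this list was lower in R98S cells, and Il3ra did not pass (log2 fold change -0.18, limma adjusted p = 0.432). The part of such shifts in the AP-1 values was not tested.

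**Figure D5:**
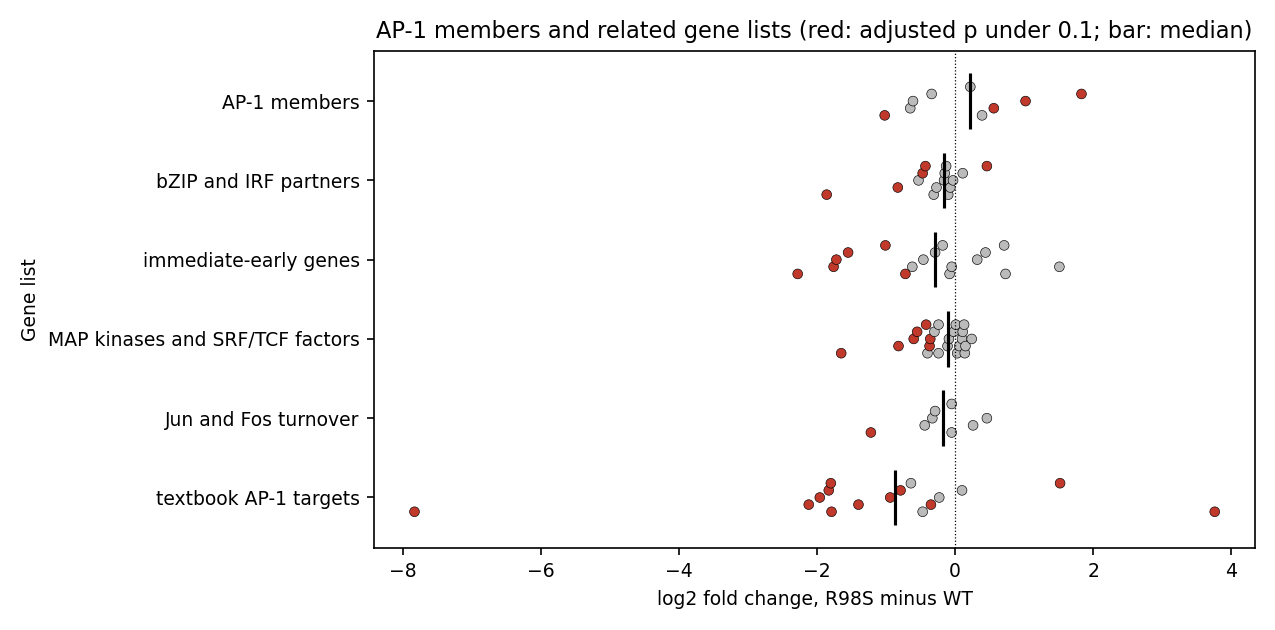
log2 fold change, R98S minus WT (x), of each tested gene in the AP-1 family and the 5 related lists (y), with red points for a limma adjusted p under 0.1 and a bar at the median of the list. AP-1 genes lie on both sides of 0 (median 0.22), while the called immediate-early and MAP kinase genes all lie below 0.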

How the data were processed

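Total mRNA of 6 Ba/F3 clones was sequenced from stranded poly(A) libraries on an Illumina HiSeq instrument. According to the methods and the submitters' processing notes, the authors removed ribosomal and transfer RNA reads with Bowtie2, aligned the rest to mm10 (GRCm38) with TopHat, kept primary alignments above a mapping quality limit and counted reads on exons (HTSeq and SAMtools are named). The annotation release and the use of strand are not given in the sources used here. Each deposited value is a signal, obtained by the authors by dividing the reads of a gene by the DESeq2 size factor of its library. In each library 100% of values were whole multiples of 1 step (tolerance 0.001), from which reads were recovered. In WT clone 36 the step was 1.00076, so near 1 that low values are close to whole numbers in any case. Clones of a group were separate samples by their counts (chi-square over degrees of freedom 18.7 to 65.2), and no column lacked a sample.

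Clones were grouped by their labels. limma (version 3.58.1, R 4.3.3) was run with an intensity trend on log2(normalized count + 1), for genes with a mean of at least 10, two-sided, with Benjamini-Hochberg adjustment and a threshold of 0.1. The labels name clones as biological replicates. Fold changes on this scale understate the change of weakly expressed genes. Exon lengths and coordinates come from GENCODE annotation of GRCm38, matched by symbol for 36832 of 41255 listed genes and all 10 members, and promoter windows from RefSeq. Members and lists were chosen with earlier results of these data known. Named are all members, in each list the called genes with the largest fold changes (at most 5) and 6 immediate-early genes whatever their values, and the 3 genes nearest to each member in pattern. Neighbours and overlapping genes were named by position and markers from marker lists, and any other gene was chosen after its values were seen. Alternatives were pseudocounts of 0.5 and 5, a mean of at least 50 or no filter, equal totals or equal upper quartiles, no intensity trend, a threshold of 0.05, each clone left out, the longest transcript as gene length, and edgeR (version 4.0.16, quasi-likelihood) and DESeq2 (version 1.42.0) on recovered reads. A correction for GC content and length (local regression, span 0.3, over 10999 genes) was added after seeing the data. The scripts were tested on simulated data. Of the B-lymphoid marker list, 1 gene is not reported here. The per-kb order with a clone left out was also added after seeing the data.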

Additional observations from a re-analysis of the deposited data

How the results depend on the processing

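No paired analysis was possible because the WT and R98S clones carry different numbers. Under the 11 alternatives other than leaving out a clone, all 99 values of the members kept their direction and their side of the threshold. With a clone left out, 42 of 54 values did so, 5 lost the call, 3 gained it and 4 changed sign. The ranges of the log2 fold change over the left-out clones were -0.02 to 0.98 for Fos, -0.13 to 0.69 for Fosb (with -0.05 among them), -0.63 to 0.08 for Fosl1, -1.10 to -0.34 for Fosl2, -1.20 to -0.72 for Junb, -1.04 to -0.41 for Jund, 0.46 to 0.66 for Batf and 0.92 to 1.18 for Batf2. The number of members called ranged from 2 (without WT clone 29 or R98S clone 35) to 6 (without R98S clone 13), that of all genes from 1322 to 3213 (without WT clone 28 and R98S clone 13, respectively), that of the bZIP and IRF list from 2 to 7, of the MAP kinase list from 2 to 8 and of the turnover list from 1 to 3. The immediate-early list gave 5 to 9 called genes with a clone left out, and 9 without WT clone 36. Fewer samples entered these fits. At a threshold of 0.05, 1722 genes and 4 of the MAP kinase list were called. That list also gave 4 without an expression filter, without the intensity trend and with the GC and length correction. The turnover list gave 2 at a minimum mean of 50, at the same upper quartile and with edgeR, and 4 with DESeq2. The cause was not tested. Over all genes, edgeR called 2746 and DESeq2 3105. Batf3, with 1 read in a single library, could not be tested at this depth. Other limits of depth were not tested.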
